A study of Mus musculus with 6 samples.

Results

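Immediate early genes are the genes that cells transcribe first after a stimulus, before any new protein has been made. The 10 described here, Egr1, Fos, Jun, Junb, Jund, Dusp1, Atf3, Ier2, Btg2 and Apold1, were found by their symbols in a table of 20764 rows. All 10 had a row, and all 10 were among the 16169 genes tested. RNA sequencing had been done on 266.6 cells, a mouse pancreatic acinar tumour line. In the CAF_CM group (3 libraries) the line was treated with medium conditioned by cancer-associated fibroblasts for up to 40 days, and in the control group (3 libraries) it was not. Both groups were grown in high-glucose DMEM with fetal bovine serum. How long the controls were cultured, and how long before RNA extraction the medium was last changed, are not given in the sources used here. Effects of the conditioned medium and of time in culture therefore cannot be told apart. Nothing in the labels says whether each replicate was its own culture, so p-values measure only how far these libraries spread, which may be technical variation.

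Growth factors, serum and stress reach these genes through the MAP kinase cascades. These kinases and those downstream of them activate serum response factor with its ELK partners at serum response elements, and CREB at cyclic AMP response elements, and transcription starts within minutes. The RNAs are mostly short-lived, so their level in growing cells reflects ongoing signalling as well as decay. Fos, Jun, Junb and Jund encode subunits of the transcription factor AP-1, Egr1 and Atf3 encode other transcription factors, and Dusp1 encodes a phosphatase that switches the MAP kinases off again. In acinar cells, MAP kinase and AP-1 activity are known to accompany injury and the change towards a duct-like state.

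Values are read counts divided by 1 factor per library, here called normalized counts, and the libraries held between 18622370 and 21002226 reads. Markers of acinar cells summed to between 39242 and 45876 normalized counts in CAF_CM libraries and between 69980 and 72482 in control libraries, and all 13 had a row, 6 of them called lower and 1 higher. Most of that sum was Ctrb1 (20975 to 25180 in CAF_CM and 44364 to 46221 in control libraries). Nr5a2 (4278 to 5011 against 4005 to 4038) and Prss2 (478 to 716 against 463 to 469) were higher in every CAF_CM library than in any control library. Ductal markers, all 9 with a row, summed to between 839 and 990 in CAF_CM and between 711 and 754 in control libraries, with 2 of 6 tested called higher, and Sox9, a duct and progenitor factor, made up most of the sum. Spp1, 1 of the 6 tested, reached the filter value of 10 only in CAF_CM libraries (24.5 to 103), against 6.12 to 9.63 in control libraries. It was thus tested only because of the group where it is high, and the count of 2 is no independent support. Fibroblast markers, 8 of 11 with a row, summed to between 3165 and 3649 in CAF_CM and between 3515 and 3710 in control libraries, with 1 called higher and 1 lower. Most of that was the receptor gene Pdgfrb (2793 to 3208 in CAF_CM and 3170 to 3348 in control libraries). Of the fibroblast collagen genes, Col1a1 was at 14.4 or less in every library and Col1a2 at 87.3 to 127 in CAF_CM and 77.1 to 80.6 in control libraries. Immune markers, 4 of 10 with a row, summed to between 65.6 and 107 in CAF_CM and between 102 and 116 in control libraries. Nearly all of that was Cd68, a lysosomal gene high in macrophages (56.8 to 97.8 in CAF_CM and 84.8 to 102 in control libraries), while Ptprc, which marks all leukocytes, was at 3.85 or less in every library. The part of these markers in the values below was not tested. Because these are bulk samples, fewer cells expressing a gene and less RNA per cell cannot be told apart.

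Of the 10 members, 4 were lower in CAF_CM libraries and 0 were higher, counting as called a gene with a Benjamini-Hochberg adjusted p under 0.05 in limma over all genes tested. Over those 16169 genes, 16.1% were called lower (2602) and 18.3% higher (2953), and with library totals as the scaling 3179 were lower and 2231 higher. No member was higher with edgeR or DESeq2 either, and 0 were higher at an unadjusted p under 0.05. The 4 were Apold1, Egr1, Atf3 and Dusp1. The 3 JUN genes, Fos, Ier2 and Btg2 were not called. The median log2 fold change of the 10 was -0.25, against 0.00459 over all genes tested. In 5 members every CAF_CM library was below every control library, and in 0 every one was above, against 22.9% and 24.8% of all genes tested.

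**Figure D1:**
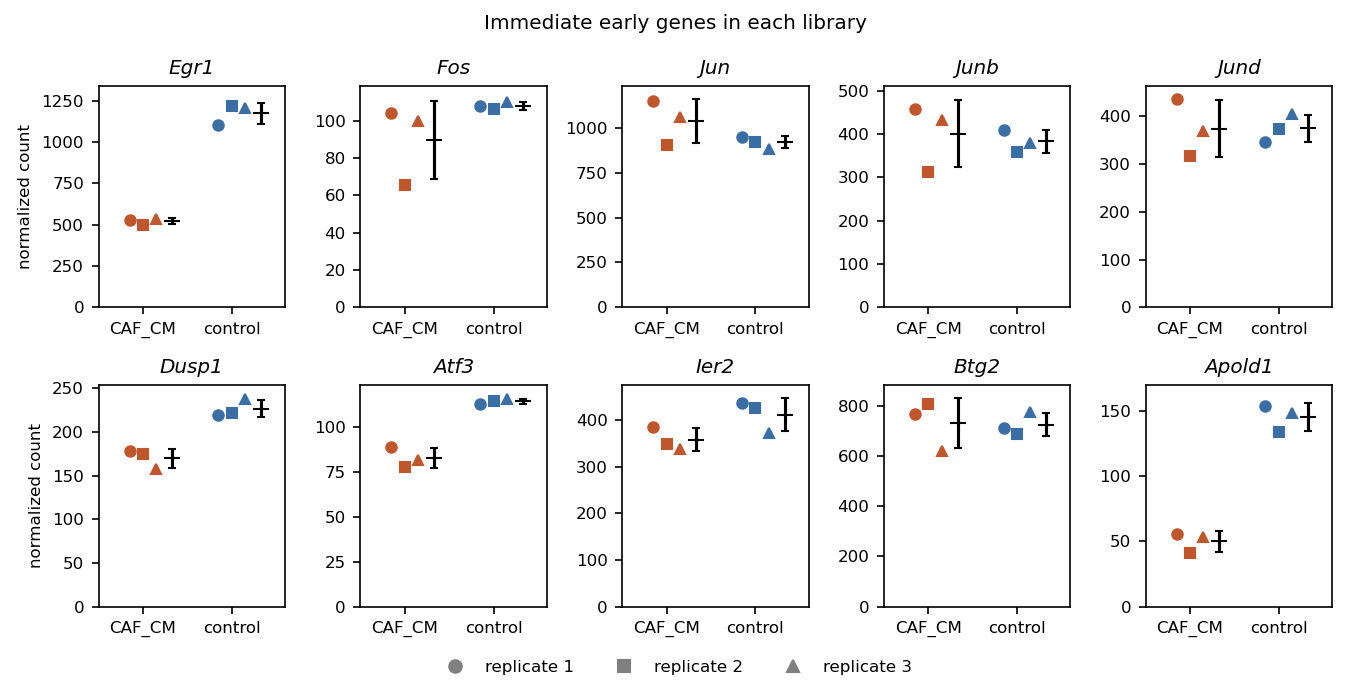
Normalized counts (y axes, linear and starting at 0) of the 10 members in each library, CAF_CM left and control right in each panel. Marker shapes give the replicate and the black bar the mean ± SD of 3 libraries. Egr1, Apold1, Dusp1, Atf3 and Fos do not overlap between groups, and for Fos the CAF_CM libraries other than replicate 2 (65.6) lie just under the controls.

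Egr1, a zinc finger transcription factor induced by growth factors and serum, had the lowest adjusted p of the members. It held 527, 500.4 and 536 normalized counts in CAF_CM replicates 1, 2 and 3, against 1101, 1217 and 1206 in control replicates 1, 2 and 3. The CAF_CM libraries lay close together and far below the lowest control. Egr1 averaged 521 ± 18.6 normalized counts in CAF_CM and 1175 ± 64.1 in control libraries (SD, n = 3 each), and was 2.25-fold lower (log2 fold change -1.17, SE 0.0627, 95% interval -1.31 to -1.03, limma adjusted p = 1.63e-06). Between 511 and 565 reads stood behind each CAF_CM value and between 1143 and 1193 behind each control value.

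Apold1, an apolipoprotein L domain gene known as an early response gene of endothelial cells, fell furthest. It held 55.6, 41.1 and 53.2 normalized counts in the CAF_CM libraries, against 154, 134 and 149 in the control libraries. All CAF_CM libraries lay far below the lowest control, and Apold1 was 2.89-fold lower (log2 fold change -1.53, SE 0.15, 95% interval -1.85 to -1.21, limma adjusted p = 5.01e-05). Ordered by log2 fold change from the lowest, Apold1 was number 49 and Egr1 number 169 of the 16169 genes. Only 42 to 56 reads lay behind each CAF_CM value of Apold1, so its size is less exact than that of Egr1. Of 8 endothelial markers, 3 had a row, and their sum also did not overlap between groups: it was 158 to 191 normalized counts in CAF_CM and 197 to 226 in control libraries, mostly of the receptor gene Tek. Tek alone overlapped (134 to 168 in CAF_CM and 166 to 207 in control libraries), and Pecam1 was higher in every CAF_CM library (16.1 to 18.6) than in any control library (9.63 to 13.3). The defining markers Cdh5, Tie1 and Vwf had no row, neither of the 2 endothelial markers tested was called, and their part in the fall of Apold1 was not tested.

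Dusp1, the phosphatase gene that ends MAP kinase signals, held 178, 174 and 158 normalized counts in the CAF_CM libraries, against 220, 222 and 238 in the control libraries. The groups did not overlap, and the gap between them was wider than the range within either. It was 1.33-fold lower (log2 fold change -0.41, SE 0.0936, limma adjusted p = 0.00583). When each library was adjusted for GC content and length of the transcripts, the log2 fold change was -0.29 (limma adjusted p = 0.0208), still lower. In GENCODE, long Dusp1 transcripts overlap Ergic1 and Gm8225 on the opposite strand, and it is not given whether reads were counted by strand. Those neighbours moved the other way, Ergic1 with a log2 fold change of 0.16 (adjusted p = 0.0232) and Gm8225 with 0.34 (adjusted p = 0.0143). AC122252.4 and AC122252.1 overlap Dusp1 on the same strand and were not examined, and the part of any overlap in the fall was not tested.

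Atf3, a stress-induced bZIP factor that often represses its targets, held 88.5, 77.4 and 81.6 normalized counts in the CAF_CM libraries, against 113, 114 and 115 in the control libraries. All 3 CAF_CM libraries were lower than the tight control group. The difference was 1.38-fold (log2 fold change -0.46, SE 0.12, limma adjusted p = 0.0106). Atf4, a stress response factor known to activate Atf3, was at 5963 ± 627 normalized counts in CAF_CM and 5238 ± 34.7 in control libraries (SD, n = 3 each) and was not called (limma adjusted p = 0.0583).

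Start regions of 3 of the genes that fell are shown with that of Jun, the member with the highest mean level per length, to let the letters around their starts be compared. They run from 250 bases before to 50 bases after the annotated start, in RefSeq on build GRCm38.p6, for Apold1 at chr6:134981751-134982050 (plus strand), Dusp1 at chr17:26508423-26508722 (minus strand), Atf3 at chr1:191183284-191183583 (minus strand) and Jun at chr4:95052173-95052472 (minus strand). Each is written 5′ to 3′ on the gene's strand. Capitals mark TGACG on either strand, the core of the cyclic AMP response element (CGTCA where it lies on the opposite strand), the full element TGACGTCA, which contains it on both strands, and TATAAA. The Jun window holds none of these as exact matches. Near matches were not searched for, and tgacatca, which is close to TGACGTCA, lies unmarked in the Jun window.
Apold1: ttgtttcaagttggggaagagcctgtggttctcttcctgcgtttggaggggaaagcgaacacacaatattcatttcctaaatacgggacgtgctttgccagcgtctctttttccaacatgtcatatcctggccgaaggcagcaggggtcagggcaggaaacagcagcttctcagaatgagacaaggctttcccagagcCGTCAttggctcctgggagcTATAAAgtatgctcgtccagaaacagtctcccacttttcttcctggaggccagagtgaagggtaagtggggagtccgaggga
Dusp1: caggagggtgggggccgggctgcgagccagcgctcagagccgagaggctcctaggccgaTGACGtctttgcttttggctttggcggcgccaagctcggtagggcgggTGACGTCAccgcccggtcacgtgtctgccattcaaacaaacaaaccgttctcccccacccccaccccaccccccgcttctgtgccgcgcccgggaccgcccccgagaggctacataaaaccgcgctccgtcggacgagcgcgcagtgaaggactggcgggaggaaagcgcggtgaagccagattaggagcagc
Atf3: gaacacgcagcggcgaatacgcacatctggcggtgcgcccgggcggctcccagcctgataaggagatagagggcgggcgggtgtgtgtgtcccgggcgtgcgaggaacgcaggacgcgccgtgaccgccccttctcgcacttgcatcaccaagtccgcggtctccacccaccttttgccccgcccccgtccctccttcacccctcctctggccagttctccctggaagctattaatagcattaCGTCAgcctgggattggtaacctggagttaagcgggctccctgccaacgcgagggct
Jun: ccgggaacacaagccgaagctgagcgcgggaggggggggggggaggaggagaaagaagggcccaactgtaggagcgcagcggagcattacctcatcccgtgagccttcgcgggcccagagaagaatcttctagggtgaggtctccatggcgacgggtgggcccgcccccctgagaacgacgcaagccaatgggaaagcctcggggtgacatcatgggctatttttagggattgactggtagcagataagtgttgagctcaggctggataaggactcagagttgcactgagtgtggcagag

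Of the 10 members, 8 matched a window of that table, and Egr1 and Ier2 did not, so the counts below leave them out. TGACG, searched on both strands, was found in 6 of the 8 (Apold1, Atf3, Btg2, Dusp1, Fos and Junb), against 20.8% of 32851 windows of all genes. Those windows were not matched to the members for GC content or gene type, so the shares here are descriptions only. It was present at -52 to -48 in Apold1 and at -7 to -3 in Atf3. The full TGACGTCA was found in Dusp1 (-143 to -136) and Btg2 (-166 to -159), and in 1.79% of all windows. TATAAA was found in 3 of the 8, Apold1, Fos and Junb, and in 13.6% of all windows. It lay before the annotated start in Apold1 and Fos, but at 1 to 6, after that start, in Junb. GGGCGG, the GC box bound by SP1, was found in 5 of the 8 and in 35.7% of all windows. The CArG box of serum response factor was found in 0 of the 8 windows and in 1.63% of all, and TGANTCA, the AP-1 site, in 0 of the 8 and 7.81% of all. Inexact matches and sites more than 250 bases before the start were not searched, so 0 does not mean that a gene lacks such sites. GCGNGGGCG, the EGR site, was found in Btg2 and in 5.55% of all windows, and CCGGAAGT, an ETS site, in 0 of the 8 and 3.89% of all. This core did not separate genes that fell from the others, since Fos, Junb and Btg2 also hold it. The Jund window lies well upstream of the transcript that GENCODE annotates, so it may not be the start used in these cells. The Apold1, Atf3 and Dusp1 windows lie wholly inside the genes that GENCODE annotates, for Atf3 and Dusp1 far inside, so the outermost starts of these genes were not searched.

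**Figure D2:**
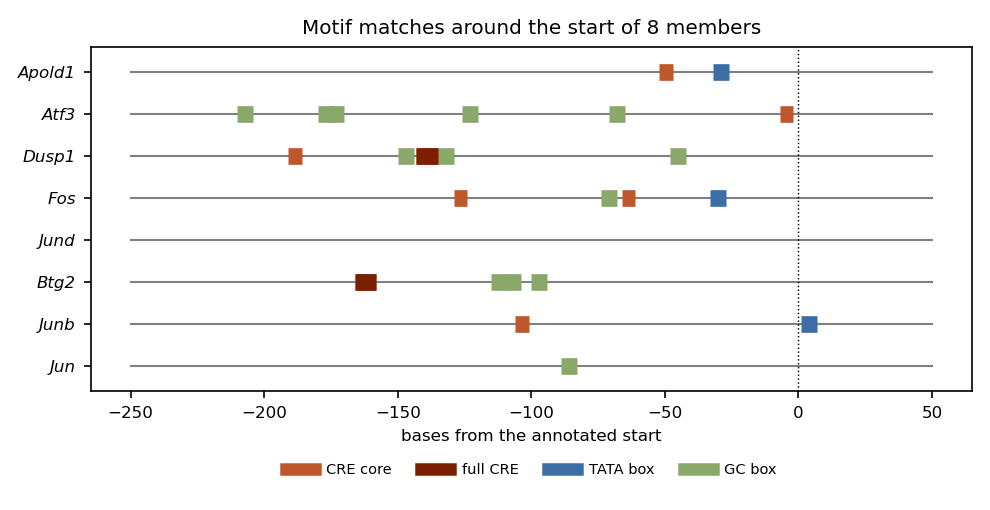
Matches to 4 motifs on either strand in the window from 250 bases before to 50 bases after the annotated start (x axis, in bases) of the 8 members with a RefSeq window, ordered from the largest fall at the top. The full element is drawn over its cores, and cores appear among genes that fell and genes that were not called.

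The FOS and JUN genes, whose products pair to form AP-1, did not share the fall of Egr1. Fos held 104, 65.6 and 99.7 normalized counts in the CAF_CM libraries, against 108, 106 and 110 in the control libraries. Replicate 2 was far lower than the other CAF_CM libraries, which lay just under the controls, and the difference did not pass the test (log2 fold change -0.29, 95% interval -0.66 to 0.0749, limma adjusted p = 0.202). It was -0.41 without CAF_CM replicate 1 (adjusted p = 0.0709), -0.0837 without replicate 2 (adjusted p = 0.620) and -0.38 without replicate 3 (adjusted p = 0.162). After the adjustment for GC content and transcript length it was -0.19 (adjusted p = 0.388).

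Jun held 1147, 906 and 1061 normalized counts in the CAF_CM libraries, against 951, 923 and 883 in the control libraries. CAF_CM replicates 1 and 3 were above all controls and replicate 2 lay among them. The log2 fold change was 0.17 (95% interval -0.00645 to 0.34, limma adjusted p = 0.125). It passed the threshold without CAF_CM replicate 2 (0.26, adjusted p = 0.00537) and after the adjustment for GC content and transcript length (0.23, adjusted p = 0.0413).

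Junb held 458, 313 and 432 normalized counts in the CAF_CM libraries, against 410, 359 and 379 in the control libraries. Jund, often the JUN protein of resting cells, held 436, 316 and 369 normalized counts in the CAF_CM libraries, against 346, 374 and 404 in the control libraries. In both genes the CAF_CM libraries spread past the controls on either side. The log2 fold changes were 0.0504 for Junb (95% interval -0.22 to 0.32, limma adjusted p = 0.789) and -0.0134 for Jund (95% interval -0.26 to 0.23, limma adjusted p = 0.939), and the sign of each depended on single libraries. Jun, Junb and Jund each have a single exon, and each overlaps a gene on the opposite strand in GENCODE, which for Junb is Prdx2, a peroxidase gene at 5370 ± 269 normalized counts in CAF_CM and 5322 ± 62.3 in control libraries (SD, n = 3 each, limma adjusted p = 0.878).

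On a scale of levels per kilobase of transcript, with every library brought to the same total, Jun had the highest mean of the members in both groups, at 16.3 ± 1.87 in CAF_CM and 14.9 ± 0.65 in control libraries (SD, n = 3 each). Lengths were those of the longest coding GENCODE transcript of each gene (4484 bases for Egr1). Other transcripts were not tried, so the order of the members may depend on that choice. It was not set apart from the next members, since Btg2 was above it in CAF_CM replicate 2 (14.8 against 14.3) and control replicate 3 (14.6 against 14.2), and Ier2 in controls lay within the spread. Fos reached 2.13 ± 0.49 in CAF_CM and 2.65 ± 0.0445 in control libraries, so in this line the JUN genes were several times more abundant than Fos. Of the summed per-length level of 6 FOS and JUN genes (with Fosb and Fosl2), Fos made up 5.22%, 4.43% and 5.47% in the CAF_CM libraries, against 6.37%, 6.42% and 6.47% in the control libraries. Jun made up 38.0%, 40.4% and 38.5% in the CAF_CM libraries, against 37.1%, 36.9% and 34.4% in the control libraries. These shares are descriptions, with no test. The share of Fos was lower, and that of Jun higher, in every CAF_CM library than in any control library. By per-length level Egr1 was number 6 of the members in CAF_CM libraries (5.83 ± 0.20) and number 4 in control libraries (13.5 ± 0.65), where Btg2 (13.7 ± 0.81) and Ier2 (14.0 ± 1.27) lay within its spread. Apold1 was the lowest member in both groups, at 0.70 ± 0.11 in CAF_CM and 2.11 ± 0.16 in control libraries.

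Ier2, a nuclear protein gene with a single exon, held 385, 349 and 339 normalized counts in the CAF_CM libraries, against 436, 426 and 372 in the control libraries. CAF_CM replicate 1 overlapped control replicate 3, and the log2 fold change of -0.20 did not pass the test (95% interval -0.39 to -0.0127, limma adjusted p = 0.0918). It passed with library totals as the scaling (-0.25, adjusted p = 0.0481) and without CAF_CM replicate 1 (-0.26, adjusted p = 0.0289). Btg2, a p53 target whose product slows proliferation and recruits the CCR4-NOT deadenylase, held 767, 808 and 619.8 normalized counts in the CAF_CM libraries, against 712, 689.7 and 778 in the control libraries. The groups overlapped throughout, and the log2 fold change was 0.00298 (95% interval -0.20 to 0.21, limma adjusted p = 0.984).

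**Figure D3:**
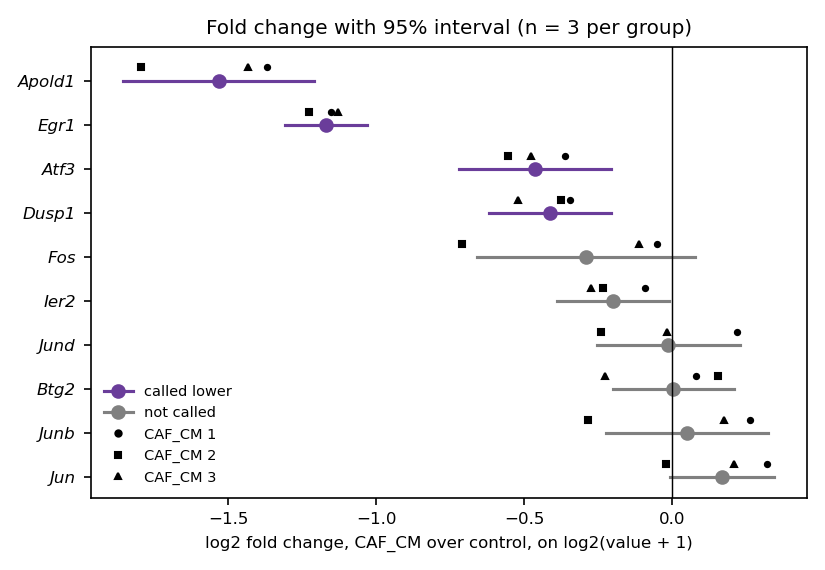
Log2 fold change of CAF_CM over control on log2(value + 1) (x axis) for each member, with its 95% interval from limma as a bar (n = 3 libraries per group). Small black markers give each CAF_CM library's difference from the control mean. The intervals of Apold1, Egr1, Atf3 and Dusp1 lie below 0 and those members are called lower, with the library markers of Apold1 between -1.79 and -1.37. The interval of Ier2 also lies below 0 (-0.39 to -0.0127), but Ier2 is not called (limma adjusted p = 0.0918).

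The CAF_CM libraries differed from each other in a way many members shared. Replicate 2 was the lowest CAF_CM library for 7 members (Egr1, Fos, Jun, Junb, Jund, Atf3 and Apold1) and replicate 1 for 0. Replicate 1 was the highest for 8 members. Over all genes tested, replicate 2 was the lowest CAF_CM library for 35.9% and replicate 1 the highest for 37.3%. The median log2 difference of the 10 members from the control mean was -0.0725 in replicate 1, -0.33 in replicate 2 and -0.25 in replicate 3. Egr1, Apold1, Dusp1 and Atf3 were also called lower without replicate 2.

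Other immediate early genes went in both directions. In a list of 61 genes, 57 were tested, 15 were higher and 7 lower, with a median log2 fold change of 0.11. That is 26.3% higher and 12.3% lower, against 18.3% and 16.1% of all genes tested. Homer1, a scaffold gene of glutamate receptors with an activity-induced short form, was at 774 ± 18.0 normalized counts in CAF_CM and 543 ± 12.1 in control libraries (SD, n = 3 each; log2 fold change 0.51, limma adjusted p = 1.24e-04). Tiparp, a mono-ADP-ribosyltransferase gene induced by the aryl hydrocarbon receptor, rose by 0.50 (adjusted p = 2.68e-04). Rhob, a gene of a short-lived small GTPase induced by growth factors, was at 877 ± 65.8 normalized counts in CAF_CM and 1454 ± 37.7 in control libraries (log2 fold change -0.73, limma adjusted p = 2.94e-05). Nfkbia, the inhibitor of NF-kB and itself its target, fell by 0.44 on the log2 scale (adjusted p = 2.19e-04). The closest relative of Egr1 that was tested, Egr2, was at 15.5 ± 7.03 normalized counts in CAF_CM and 19.2 ± 1.80 in control libraries (adjusted p = 0.401), and Fosb at 24.2 ± 8.50 and Fosl2 at 113 ± 10.6 in CAF_CM, against 23.4 ± 8.82 and 105 ± 6.50 in control libraries, were not called either. The lower count was 11 without CAF_CM replicate 1 and 4 without control replicate 2 or 3.

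Of the genes upstream of the members, more were higher than lower. Of 40 tested in the list of RAS, MAP kinase, serum response factor and CREB components, 14 were higher and 1, the RAF kinase gene Araf, was lower, with a median log2 fold change of 0.13. These counts are 35% and 2.5% of the list, against 18.3% and 16.1% of all genes tested. With library totals as the scaling, 11 were higher and 3 lower. Srf, the factor that binds the serum response element, was at 816 ± 23.6 normalized counts in CAF_CM and 614 ± 25.0 in control libraries (SD, n = 3 each; log2 fold change 0.41, limma adjusted p = 4.83e-04). The RAS gene Nras was at 2797 ± 66.5 in CAF_CM and 2105 ± 14.4 in control libraries (0.41, adjusted p = 1.07e-04), and Creb1, whose product binds the cyclic AMP response element, also rose (0.42). The RNA level of a kinase says nothing of its activity, which these data do not measure. The lower count was 3 without CAF_CM replicate 1 and 0 without any single control library.

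Among AP-1 and CREB/ATF partners, 9 of 27 tested were higher and 1, Creb3, was lower, with a median log2 fold change of 0.14. As shares this is 33.3% higher and 3.70% lower, against 18.3% and 16.1% of all genes tested. Under library totals 7 were higher and 2 lower, and without control replicate 2 the higher genes numbered 5. Cebpg, a bZIP partner of ATF4, was at 1885 ± 17.6 normalized counts in CAF_CM and 1333 ± 47.9 in control libraries (SD, n = 3 each; log2 fold change 0.50, limma adjusted p = 5.85e-05). Atf2, a dimer partner of JUN (0.41), the small MAF gene Mafg (0.39) and Bach1, a repressor of antioxidant genes (0.42), rose as well. Fosb, Fosl2, Maff and Mafk are in this list and in that of other immediate early genes.

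None of the 9 other tested phosphatases of the family of Dusp1 was called lower. These are too few genes to set 0 apart from the 16.1% called lower among all genes tested. In a list of MAP kinase phosphatases, EGR co-repressors, BTG/TOB genes and mRNA decay factors, 12 of 26 tested were higher and 0 lower in limma, with a median log2 fold change of 0.24; edgeR, DESeq2 and an unadjusted p under 0.05 also gave 0 lower. In limma 46.2% of this list was thus higher and 0% lower, against 18.3% and 16.1% of all genes tested. Of its 9 MAP kinase phosphatases, a subset counted after the values were seen, 5 were higher. Dusp7, a cytoplasmic member, was at 493 ± 38.3 normalized counts in CAF_CM and 309 ± 13.4 in control libraries (SD, n = 3 each; log2 fold change 0.67, limma adjusted p = 1.53e-04). Dusp8, which acts on JNK and p38, was at 704 ± 32.3 in CAF_CM and 443 ± 25.0 in control libraries (0.67, adjusted p = 7.44e-05). Tob2, an antiproliferative relative of Btg2 (0.55), and Elavl1, whose product HuR stabilises AU-rich RNAs (0.45), rose. Without control replicate 1 the higher genes numbered 7.

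Heat shock genes, which respond to protein stress and to the handling of cells, were higher in 10 of 15 tested and lower in 0 in limma, with a median log2 fold change of 0.33; edgeR and DESeq2 gave the same counts, and 1 was lower at an unadjusted p under 0.05. Of all genes tested, 18.3% were higher and 16.1% lower in limma, against 66.7% and 0% of this list. Under library totals 8 were higher and 1 lower. Hspa1b, an inducible HSP70 gene, was at 303 ± 65.5 normalized counts in CAF_CM and 141 ± 16.8 in control libraries (SD, n = 3 each; log2 fold change 1.08, limma adjusted p = 3.85e-04). Hsph1 (0.56), Hsp90aa1 (0.40) and the co-chaperone gene Bag3 (0.38) rose. Hspa1a and Hspa1b are near-identical copies that share reads, so their separate values are uncertain. The part of handling in the values of the members was not tested.

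**Figure D4:**
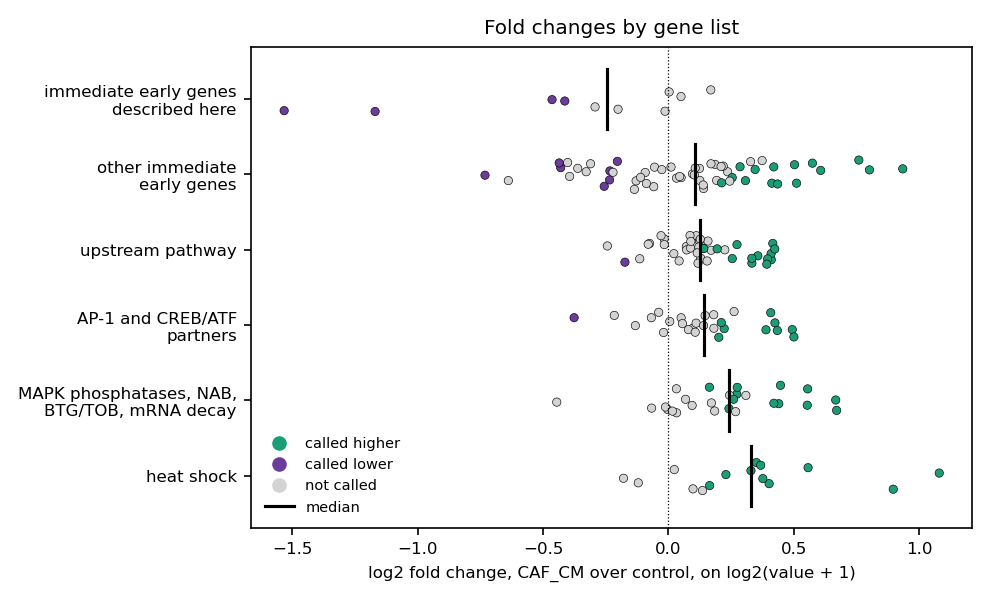
Log2 fold change of CAF_CM over control on log2(value + 1) (x axis) for every tested gene of 6 lists (1 point a gene, spread vertically at random within its list). Colours give the call at an adjusted p under 0.05 in limma, and the black line is the list's median, -0.25 for the 10 members at the top and 0.33 for heat shock genes at the bottom.

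Some genes outside the lists had nearly the pattern of Egr1 over the 6 libraries, measured by the root mean square difference of their log2 differences from the control mean among 11134 genes with a mean of at least 50 normalized counts. The nearest to Egr1 was Clca3a1, a chloride channel accessory gene, with 238, 221 and 248 normalized counts in the CAF_CM libraries, against 552, 547 and 558 in the control libraries (root mean square difference 0.0646 log2 units). The adaptor gene Stap2 (0.0873) and the fatty acyl-CoA reductase gene Far2 (0.0926) came next. The log2 fold changes of Clca3a1, Stap2 and Far2 were -1.23, -1.17 and -1.13, close to the -1.17 of Egr1. A small difference on this measure mainly reflects a fall of like size, and shared regulation was not tested. The nearest to Apold1 were Alb, the albumin gene (0.14), Tgfbr3l (0.19) and again Clca3a1 (0.24).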

How the data were processed

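The 6 libraries of the 266.6 line were made, per the labels' protocols, with Illumina's TruSeq RNA kit. FastQC, DESeq2 and hg19 are named, per the submitters' processing notes. The aligner, counting program and mouse build are not given in the sources used here. The authors deposited a non-negative signal, read counts scaled by 1 factor for each library. In all libraries 100% of values were whole multiples, within 0.001 of a read, of the worth of 1 read (0.949 to 1.05), which recovered the reads. Rows without a symbol (168, with 0.153% to 0.261% of reads) stayed out. The lowest row total was 10 reads, so rarer genes have no row.

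Differences were tested with limma 3.58.1 (R 4.3.3) on log2(value + 1), which understates changes of low genes, with a variance trend, keeping genes that reached 10 in 3 or more libraries, with Benjamini-Hochberg adjusted p-values over all of them. Alternatives were edgeR 4.0.16 and DESeq2 1.42.0 on recovered reads, and the settings named in the closing section. GC content and length were those of the longest coding GENCODE M21 transcript of each symbol, found for 97.5% of genes tested.

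The members, gene lists, markers, tests and alternatives were chosen with earlier results of these data known. Named genes are the members, up to 4 called genes of each list by lowest adjusted p, and 3 genes nearest in pattern to Egr1 and to the member with the largest change. Araf, Creb3, Egr2, Fosb, Fosl2, Atf4, Hspa1a and the neighbouring genes on the opposite strand were named after their values were seen. A gene that the rule also names is not reported here.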

Additional observations from a re-analysis of the deposited data

How the results depend on the processing

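The falls of Egr1, Apold1, Dusp1 and Atf3 were called under all 17 alternatives, with log2 fold changes of -1.22 to -1.14, -1.61 to -1.40, -0.46 to -0.29 and -0.52 to -0.36 and highest adjusted p of 8.66e-05, 0.00107, 0.0360 and 0.0441. Fos, Junb, Jund and Btg2 were called under none, and Jun and Ier2 under 2 each. The alternatives were edgeR, DESeq2, TMM scaling, library totals, pseudocounts of 0.5 and 5, no filter, a filter of 50, separate weights for the groups, the replicate block, the length and GC correction, and each of the 6 libraries left out.

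With the length and GC correction Jun was higher (0.23), the sign of Jund turned (0.0311), 1 member was called higher and 3 upstream genes lower. Btg2 turned to -0.00333 with TMM scaling and -0.0425 with library totals. With library totals Ier2 was called lower (-0.25), as were 3 upstream genes, 2 partners and 1 heat shock gene. Upstream genes called lower numbered 2 with edgeR, TMM scaling or separate weights. The replicate block and separate weights each gave 1 heat shock gene lower. The block changed no call of a member. Same-numbered CAF_CM and control libraries correlated by 0.0703, 0.0291 and 0.0305 in their deviations from the group means, too weakly to take the numbers as pairs, although each library correlated best with its own number, which is a hint from the data and not the design, and over all genes the block gave 3166 higher and 2755 lower. The causes of these changes were not tested.

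Leaving out 1 library at a time, the log2 fold change ran from -0.41 to -0.0837 for Fos, 0.0938 to 0.26 for Jun, -0.0549 to 0.22 for Junb, -0.13 to 0.10 for Jund, -0.27 to -0.16 for Ier2 and -0.0731 to 0.12 for Btg2. Members called higher numbered 0 to 1, with Jun the 1 without CAF_CM replicate 2. Other immediate early genes called lower ran from 4 to 11, upstream genes lower from 0 to 3, partners higher from 5 to 11 and lower from 1 to 2, and the list with the MAP kinase phosphatases from 7 to 13 higher and 0 to 1 lower. Heat shock genes lower ran from 0 to 2. Over all genes, 1868 to 3509 were higher (main 2953) and 1659 to 2943 lower (main 2602), with the lowest counts without control replicate 1, and library totals gave 2231 higher and 3179 lower. Fewer libraries, and for Apold1 and Atf3 few reads, limit these values.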
